A study of Rattus norvegicus with 12 samples.

Results

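Hippocampal cultures that had gone through 2 h of oxygen and glucose deprivation (OGD) were compared at 24 h and at 7 h of recovery, with 3 arrays at each time and thus 6 of the 12 arrays of the series. The arrays were chosen by their titles, OGD 24h and OGD 7h, and no measured value entered the choice. The remaining 6 arrays, 3 titled Ctrl 24h and 3 titled Ctrl 7h, came from sister cultures without OGD, and the same 24 h minus 7 h change was computed in them to show how much of each change the control cultures shared. All 4 groups were primary neurons from the hippocampus of Wistar rat embryos, at embryonic day 18 per the labels and up to a day later per the methods, kept 14 to 15 days in culture, with no genetic change and no drug. OGD cultures were placed in a buffer in which sucrose stood in for glucose, inside an anaerobic chamber. Control cultures received a matching buffer with 25 mM glucose in the ordinary incubator for as long, so the medium exchange was common to all arrays. Both kinds then went back to their own conditioned medium for 7 h or 24 h. RNA of each of 3 independent cultures was put on a one-colour rat gene expression array, so the groups compared differed in recovery time and also in slide and scan day, and the samples were bulk mixtures of the cells in a well.

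OGD is a dish model of ischaemia: neurons lose ATP, depolarise and release glutamate, and re-oxygenation afterwards adds oxidative stress. Cells that survive commonly switch on immediate early transcription factors, heat shock proteins, antioxidant enzymes and inflammatory mediators within hours, and much of this first wave is transient. Later on, surviving cultures may restore synaptic and metabolic genes, and glial precursors can divide or mature.

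The data were log2 intensities relative to the median non-control probe of the same array, so a level of 0 is the level of that median probe and a difference of 1 is 2-fold. There were 30367 probes, of which 18004 carried a gene name (15154 symbols, each followed by 1 representative probe). Changes are log2 differences between the means of 3 arrays, given ± SE from a limma fit over all 12 arrays. Genes are said to have risen or fallen where the unadjusted p was under 0.05. A gene was called where the change was at least 2-fold as well. Adjusted p-values are Benjamini-Hochberg values over all 30367 probes.

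The OGD 24 h arrays varied most among themselves: the median SD over probes was 0.487, against 0.226 to 0.245 in the other 3 groups. OGD 24 h replicate 1 correlated less with replicates 2 and 3 of its group (r = 0.968 and 0.957) than these did with each other (r = 0.989), and its median intensity of 131 was the lowest of the series. On each slide an OGD array lay beside the control array with its recovery time and replicate number. Slide and scan day therefore cannot be told apart from recovery time within OGD cultures, whereas both cancel in the OGD change minus the control change. Arrays of the same slide were scanned up to 211 minutes apart, and what affects a single array does not cancel. A foreign RNA added before labelling (the spike-in, read by 1 kind of control probe) also moved with time. Its level lay between -1.93 and -0.17 on the OGD 7 h arrays and at 6.32, 3.07 and 1.85 on OGD 24 h replicates 1, 2 and 3, while control arrays went from between -2.62 and -1.40 to between 2.49 and 3.01.

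All 20 neuron markers were above background on all 6 OGD arrays, as the label has it. So were 15 of 16 astrocyte, 13 of 15 oligodendrocyte lineage, 10 of 16 microglia and 9 of 15 vascular and fibroblast markers. Of all 15154 named genes, 10904 were above background on all 12 arrays. That rule is stricter than one of the 6 OGD arrays, so the share on those 6 was at least as large. The microglia and the vascular and fibroblast counts were no larger a share than that and do not show that such cells were present. The mean level of the astrocyte markers lay between 4.37 and 5.81 on the OGD arrays, so the cultures also held RNA of glia. Ptprc, a pan-leukocyte marker, and the vascular markers Tek and Rgs5 were not above background on any OGD array. The mean level of the neuron markers ran from 4.20 to 4.69 at 7 h and was 3.66, 4.60 and 4.50 on the 24 h arrays. In such bulk samples, fewer cells of a type and less RNA per cell cannot be told apart.

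Between 7 h and 24 h after OGD, many immediate early genes and some chemokines, matrix proteases and neuropeptides fell, and some genes of the oligodendrocyte lineage, of DNA replication and of the proteasome rose. Most genes called after OGD moved the same way in control cultures over the same interval. A smaller group, which included the glucose transporter Slc2a3, the matrix protease Adamts1 and the innate receptor Tlr2, fell in OGD cultures with little change in controls. For no probe, however, did the difference between the OGD and the control change pass adjustment. Among named genes, 316 were called higher at 24 h than at 7 h (2.09%) and 413 lower (2.73%). Whatever their fold, 29 genes (0.191%) were higher and 72 (0.475%) lower at an adjusted p under 0.05, and the lowest adjusted p (limma) was 0.00102. With replicate number as a block on the OGD arrays alone, 0 probes passed (limma, lowest adjusted p = 0.0632) while 5258 had an unadjusted p under 0.05, and in the fit of all 12 arrays with that block 276 probes passed. Over all probes 619 were called higher (2.04%) and 786 lower (2.59%). With normexp background correction that split was 111 higher and 224 lower.

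These counts depended on single arrays. With OGD 24 h replicate 1 left out, 1250 probes were called higher and 3242 lower, while without OGD 24 h replicate 2 the lower count was 564. At an adjusted p under 0.05, 65 probes were higher (0.214%) and 120 lower (0.395%), in all 185. This count was 1 without OGD 24 h replicate 2, and also 1 without OGD 7 h replicate 1 or OGD 7 h replicate 2, and 5390 without OGD 24 h replicate 1. Of 132 genes that the naming rule chose and that passed in OGD cultures, between 91 (without OGD 7 h replicate 1) and 127 passed with any single array left out, 102 without OGD 24 h replicate 1.

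Control cultures had 133 named genes called higher (0.878%) and 647 called lower (4.27%) at 24 h. Over all probes these were 252 (0.83%) and 1246 (4.1%), with quantile normalization 375 and 497, and with normexp 83 and 192. There were 45 genes called higher and 142 called lower in both kinds of culture, and 1 called lower in OGD and higher in control. Of the 316 genes called higher in OGD cultures, 265 were also above 0 in the control change, with a median of 1.29 in OGD and 0.47 in control cultures. Of the 413 called lower, 389 were also below 0 in control, with medians of -1.35 and -0.80. Over all 15154 named genes, 6924 were above 0 in the control change. Over the 10904 named genes above background on all 12 arrays the 2 changes correlated with r = 0.66 (Spearman's rho = 0.63), a description over genes whose arrays share slides.

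**Figure D1:**
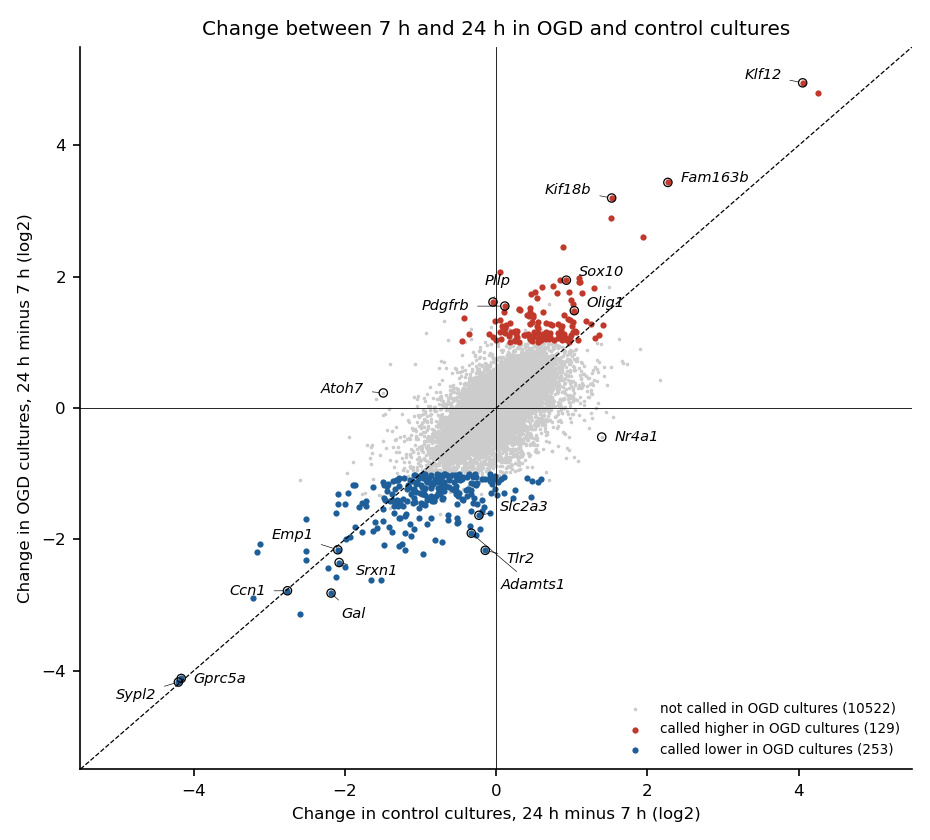
Log2 change from 7 h to 24 h in control cultures (horizontal axis) against OGD cultures (vertical axis), 1 point for each of 10904 named genes above background on all 12 arrays; 129 called higher and 253 called lower in OGD are coloured and the dashed line marks equal change. Points such as Sypl2 and Gprc5a lie on the line, and Slc2a3, Adamts1 and Tlr2 lie below it near a control change of 0.

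The largest falls were shared with control cultures. Sypl2, a relative of the synaptic vesicle protein synaptophysin, read 3.63, 3.47 and 3.50 on OGD 7 h replicates 1, 2 and 3, and -0.40, -0.63 and -0.88 on OGD 24 h replicates 1, 2 and 3. The groups did not overlap, and the fall of -4.17 ± 0.30 had the lowest adjusted p of all probes (limma, adjusted p = 0.00102). The control change was -4.20. A dim second probe of Sypl2 gave 0.09.

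Gprc5a, an orphan receptor induced by retinoic acid, read 8.02, 7.29 and 5.82 at 7 h and 5.03, 2.08 and 1.67 at 24 h after OGD. Every 24 h array was lower than every 7 h array, with replicate 1 the highest at both times, and the change was -4.12 ± 0.84 (limma, adjusted p = 0.0606) beside -4.17 in control. Dio3, the deiodinase that inactivates thyroid hormone, read 4.44, 4.97 and 4.59 at 7 h and 2.84, 0.66 and 1.07 at 24 h. It fell by 3.14 ± 0.48 without overlap (limma, adjusted p = 0.0266), with a control change of -2.59. The other large falls were those of the tight junction gene Cldn14 (-3.34), the protease inhibitor Tfpi2 (-3.30) and Sfnl1 (-2.89), for which control cultures gave -3.28, -4.96 and -3.22. Alpl, tissue-nonspecific alkaline phosphatase, read 1.74, 1.38 and 1.48 at 7 h and -1.53, -1.41 and -0.33 at 24 h. The change was -2.63 ± 0.31 without overlap (limma, adjusted p = 0.0197), beside -1.66 in control. Its fall in control was thus smaller, with a difference of -0.97 ± 0.44 (limma, unadjusted p = 0.0497). With replicate number as a block that difference no longer passed (limma, unadjusted p = 0.0563).

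Immediate early genes, the transcription factors and signalling regulators that cells induce first after a stimulus, fell as a group. Of 30 measured members 13 fell and none rose, a share of 43.3% against 8.13% of all named genes that fell and 9.4% that rose, with a median change of -0.66. The count that fell ranged from 9 without OGD 24 h replicate 2 to 16 without other single arrays, and was 7 with normexp background correction. In control cultures, where 9.75% of named genes fell and 5.46% rose, 7 of the 30 fell and 3 rose, with a median of -0.20. Ccn1, a matrix-bound signalling protein, read 6.50, 5.98 and 5.58 at 7 h and 4.46, 2.33 and 2.92 at 24 h. The groups were apart, and the change was -2.78 ± 0.52 (limma, adjusted p = 0.0471) beside -2.76 in control. All 3 values at 24 h lay below all 3 values at 7 h for 14 of the 30, against 9.3% of named genes, and above them for 10.8% of named genes.

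Egr2, a zinc finger transcription factor, read 2.08, 2.38 and 1.88 at 7 h and 0.43, 0.23 and 0.57 at 24 h. All 24 h arrays were lower and close to each other, and the change was -1.70 ± 0.35 (limma, adjusted p = 0.0617). The control change of -0.64 did not pass. Fosl1, a Fos family partner of Jun, read 6.78, 5.42 and 5.24 at 7 h and 5.93, 2.85 and 2.42 at 24 h. The high 24 h replicate 1 overlapped the 7 h arrays. The change of -2.08 was -3.18 without that array, and it no longer passed without OGD 24 h replicate 2 (-1.64), OGD 24 h replicate 3 (-1.42) or OGD 7 h replicate 1 (-1.60). Maff, a small Maf factor, read 2.50, 0.97 and 0.85 at 7 h and 0.99, -0.78 and -1.36 at 24 h, with a change of -1.82 ± 0.57, and 24 h replicate 1 lay above 7 h replicates 2 and 3. The other members that fell were Nr4a2, Atf3, Myc, Junb, Jun, Dusp6, Egr1, Ier5 and Ier2, by between -1.50 and -0.57.

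Among NRF2-type antioxidant genes, targets of a transcription factor that oxidants activate, 4 of 24 fell and 4 rose, 33.3% in all against 17.5% of named genes. Srxn1, sulfiredoxin, which repairs over-oxidised peroxiredoxins, read 8.92, 8.18 and 8.04 at 7 h and 6.62, 5.58 and 5.88 at 24 h. Its 7 h arrays lay far above its 24 h arrays, with 1 of them saturated so that its value there is a lower limit, and it fell by 2.35 ± 0.29 (limma, adjusted p = 0.0197), with a control change of -2.08. Txnrd1 (thioredoxin reductase), Sod2 (mitochondrial superoxide dismutase) and Me1 (malic enzyme) fell by 0.79, 0.88 and 0.77. Nqo1, a quinone reductase, rose by 0.79, Gstp1 by 0.69, the peroxide-degrading Cat by 0.60 and Sqstm1 by 0.35. The Sqstm1 change passed without OGD 24 h replicate 3 but not with any other array left out, and Sod2 and Nqo1 no longer passed without OGD 24 h replicate 1 (-0.65 and 0.56), without OGD 24 h replicate 2 (-0.81 and 0.76), or without OGD 7 h replicate 3 for Sod2 (-0.61) and OGD 7 h replicate 2 for Nqo1 (0.70).

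Of 17 genes of the heat shock response, only the co-chaperone Bag3 fell and only the chaperone Hsp90ab1 rose (0.59), 11.8% in all against 17.5% of named genes. Bag3 read 6.78, 5.65 and 5.78 at 7 h and 4.85, 4.30 and 4.80 at 24 h after OGD. It fell without overlap by 1.42 (limma, adjusted p = 0.0759), and control cultures gave -1.72.

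Of 28 chemokines and cytokines, 6 fell (21.4%, against 8.13% of named genes) and none rose in OGD cultures, with a median change of -0.65, and the same count fell in control cultures with a median of -0.58. Ccl7, a monocyte chemokine, read 4.17, 5.48 and 6.88 at 7 h and 3.09, 2.90 and 4.0 at 24 h. The groups were apart, the change of -2.18 had an adjusted p of 0.25 (limma), and control cultures gave -2.52. Ccl2, the main monocyte chemoattractant, read 6.37, 7.31 and 8.24 at 7 h and 6.38, 4.72 and 5.75 at 24 h. Replicate 1 did not differ between times, and the other 2 replicates were lower at 24 h. Neither Ccl7 nor Ccl2 passed without OGD 24 h replicate 2 (-1.96 and -1.24), OGD 7 h replicate 2 (-2.19 and -1.68) or OGD 7 h replicate 3 (-1.49 and -1.22). The remaining members that fell were Il6 and Il1b, Cxcl1 (-1.46) and Il1rn (-1.16), of which Il1b was above background on 1 OGD 7 h array alone. Without OGD 7 h replicate 3 only 2 of the 28 fell and 2 rose, and the median was -0.12. Of 25 interferon-stimulated genes 2 fell (8%, against 8.13% of named genes), Rsad2 (-2.0) and Ifi27 (-0.38). Rsad2, an antiviral enzyme, read 1.48, 1.01 and 4.21 at 7 h and 0.64, -0.03 and 0.09 at 24 h, and without the high OGD 7 h replicate 3 its change was -1.01.

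Reactive astrocyte genes fell for 6 of 22 members and rose for 1, 31.8% in all against 17.5% of named genes, and 7 fell in control cultures. Ptx3, a secreted pentraxin, read 5.77, 5.71 and 5.82 at 7 h and 2.06, 3.03 and 4.33 at 24 h. The 7 h arrays were close to each other and above all 24 h arrays, with a change of -2.63 ± 0.50 (limma, adjusted p = 0.0472) beside -1.52 in control. Emp1, a membrane protein of the claudin-like PMP22 family, read 5.98, 5.27 and 5.08 at 7 h and 3.92, 3.02 and 2.91 at 24 h. It fell by 2.16 ± 0.37 without overlap (limma, adjusted p = 0.0364), and the control change was -2.10. Tgm1 (transglutaminase 1), Aspg, Ptgs2 (the inducible cyclooxygenase) and B3gnt5 fell by 1.47, 1.44, 1.37 and 1.26. Nes, the intermediate filament of neural progenitors, rose by 1.27 instead.

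Promoter sequence (RefSeq, GRCr8, 250 bases before to 50 after the start) was available for 12384 of the 15154 named genes. The AP-1 motif TGANTCA, bound by Fos and Jun family factors, was present on either strand in 12 of 113 promoters of genes called lower in both kinds of culture (10.6%), in 6.31% of promoters of named genes and in 7.33% of all 33469 promoters. The antioxidant response element core TGACNNNGC, which can overlap TGANTCA, was in 21 of these 113 (18.6%) against 13.5% of named genes, and in 7 of 19 promoters of NRF2-type antioxidant genes (36.8%). The cyclic AMP response element TGACGTCA was in 5 of 22 promoters of immediate early genes (22.7%) against 2.57%, and the NF-kB motif (GGGA and TTCC, 2 bases apart) in 7 of 21 of chemokines and cytokines (33.3%) against 1.39%. The heat shock element (GAA, TTC and GAA, each 2 bases apart) was in 6 of 16 promoters of the heat shock response (37.5%) against 0.798% of all promoters. Not every list held such a motif. The AP-1 motif was in 0 of 22 promoters of immediate early genes, against 6.31% of named genes. The sterol element TCACNCCAC was in 0 of 16 promoters of cholesterol synthesis and uptake genes, against 1.08% of named genes. These are matches of letters in a window and no measured binding.

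The promoters of 4 genes that fell are shown, from 250 bases before to 50 after the start and 5′ to 3′ on the strand of the gene, because they hold the motifs counted above, in capitals. Srxn1 (chr3:161064562-161064861, plus strand) has TGAGTCA at -62 and at -5. Emp1 (chr4:169943980-169944279, plus strand) has TGAGTCA at -212 and TGATTCA at -88, and on the opposite strand an antioxidant core, read here as GCAATGTCA, at -249. Maff (chr7:112792537-112792836, plus strand) has TGACGTCA at -51. Il6 (chr4:5894526-5894825, minus strand) has TGACGTCA at -162 and GGGATTTTCC at -68.
Srxn1: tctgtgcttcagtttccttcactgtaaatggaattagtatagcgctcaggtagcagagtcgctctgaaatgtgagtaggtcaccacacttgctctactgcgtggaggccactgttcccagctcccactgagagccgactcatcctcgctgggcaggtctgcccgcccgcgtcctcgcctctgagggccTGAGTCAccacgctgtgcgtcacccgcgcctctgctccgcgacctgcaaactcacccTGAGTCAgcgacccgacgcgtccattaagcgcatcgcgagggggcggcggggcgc
Emp1: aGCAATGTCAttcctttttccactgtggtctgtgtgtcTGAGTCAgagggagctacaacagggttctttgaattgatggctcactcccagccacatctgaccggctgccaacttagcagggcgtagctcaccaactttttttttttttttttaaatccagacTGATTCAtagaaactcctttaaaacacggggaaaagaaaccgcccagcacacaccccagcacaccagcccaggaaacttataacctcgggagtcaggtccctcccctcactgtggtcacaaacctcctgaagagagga
Maff: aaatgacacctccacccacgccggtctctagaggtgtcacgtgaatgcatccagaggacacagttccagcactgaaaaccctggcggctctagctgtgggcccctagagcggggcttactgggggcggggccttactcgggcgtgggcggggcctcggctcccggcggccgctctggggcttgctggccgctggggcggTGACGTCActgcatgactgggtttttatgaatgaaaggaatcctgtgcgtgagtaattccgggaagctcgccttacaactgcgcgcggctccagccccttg
Il6: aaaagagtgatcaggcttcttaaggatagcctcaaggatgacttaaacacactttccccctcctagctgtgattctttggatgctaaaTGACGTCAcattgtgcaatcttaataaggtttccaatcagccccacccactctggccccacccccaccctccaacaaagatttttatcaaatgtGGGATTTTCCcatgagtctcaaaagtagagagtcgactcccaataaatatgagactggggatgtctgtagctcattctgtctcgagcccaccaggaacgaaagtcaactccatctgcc

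Of 32 matrix proteases and their inhibitors, which remodel the matrix around cells, 7 fell and 1, Mmp11 (1.63), rose, 25.0% in all against 17.5% of named genes, with a median of -0.07. In controls 6 fell. Plau, the urokinase plasminogen activator, read 0.48, -0.36 and 0.22 at 7 h and -0.71, -1.89 and -3.15 at 24 h, with a change of -2.03 beside -2.95.

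Of 37 growth factors and neurotrophins 7 fell and 4 rose, 29.7% in all against 17.5% of named genes. Hbegf, an EGF receptor ligand, read 6.34, 5.82 and 5.77 at 7 h and 5.27, 3.16 and 2.54 at 24 h. All 24 h arrays were lower, replicate 1 least so, and the change was -2.32 ± 0.56 (limma, adjusted p = 0.0861) beside -2.51 in control. Inhba (activin A subunit), Igf1, Bmp2, Igfbp5, Artn and the BDNF receptor Ntrk2 fell by 1.84, 1.34, 1.19, 1.05, 1.02 and 0.75. Bmp4 rose by 1.92 ± 0.43 (limma, adjusted p = 0.0721), from -1.70, -0.97 and -0.05 at 7 h to 0.52, 1.31 and 1.22 at 24 h without overlap, and by 1.1 in control cultures.

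Of 22 neuropeptides 6 fell (27.3%, against 8.13% of named genes) and none rose, with a median of -0.67 beside -0.26 in control. Gal, the precursor of galanin, read 6.24, 6.63 and 6.68 at 7 h and 4.94, 2.61 and 3.54 at 24 h. It was lower on every 24 h array, by -2.82 ± 0.59 (limma, adjusted p = 0.0621), and a second probe gave -2.38. Control cultures changed by -2.19 from lower levels of 2.75 to 4.48. Tac1 (substance P precursor), Pdyn, Nppc, Cort and Cck fell by 1.64, 1.30, 1.17, 0.95 and 0.71. Only 3 of the 22 fell without OGD 24 h replicate 1, with a median of -0.33.

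**Figure D2:**
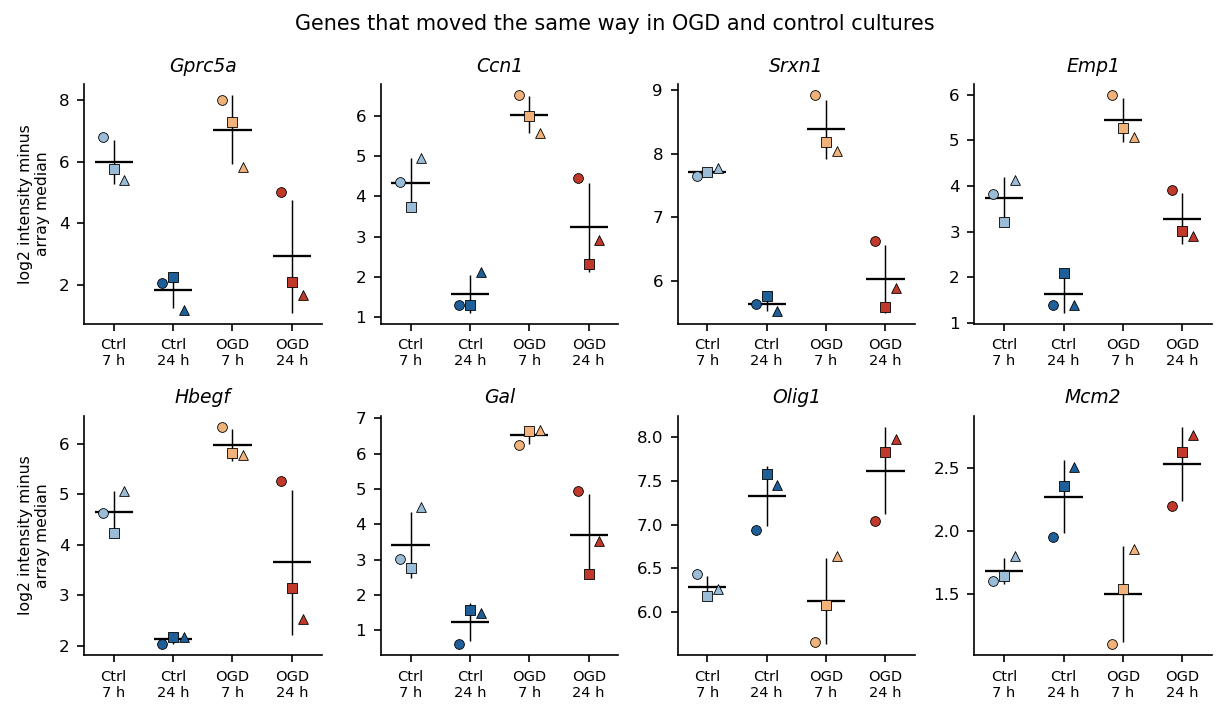
Log2 level relative to the array median (vertical axis) of 8 genes on every array, by group (horizontal axis: OGD and Ctrl at 7 h and 24 h); marker shape is the replicate number, the line the mean and the bar the SD of 3 arrays. Gprc5a, Ccn1, Srxn1, Emp1, Hbegf and Gal were lower at 24 h in both kinds of culture, and Olig1 and Mcm2 higher.

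Genes of the oligodendrocyte lineage rose. Of 15 markers 6 passed the test as higher (40%, against 9.4% of named genes) and none as lower, the count running from 4 to 7 when single arrays were left out. Changes were above 0 for 13 of the 15 and for 7643 of all 15154 named genes. The median of the list was 0.49 beside 0.19 in control. Sox10, a transcription factor of the lineage, read 0.34, 1.31 and 2.44 at 7 h and 3.04, 3.22 and 3.68 at 24 h. All 24 h arrays were higher, the 7 h arrays were widely spread, and the change was 1.95 ± 0.43 (limma, adjusted p = 0.0721). In control cultures, where 7 h levels were 2.20 to 2.52, the change of 0.93 did not pass. Olig1, which directs oligodendrocyte maturation, read 5.66, 6.09 and 6.64 at 7 h and 7.04, 7.83 and 7.97 at 24 h. It rose by 1.48 ± 0.31 without overlap (limma, adjusted p = 0.0627), and by 1.03 in control.

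Markers of oligodendrocyte precursors were lowest on OGD 7 h replicate 1. Pdgfra, the PDGF receptor of precursors, read 2.56, 4.22 and 5.20 at 7 h and 4.77, 5.05 and 5.83 at 24 h, with control levels of 4.82 to 5.18 at both times. The groups overlapped, and its rise of 1.23 fell to 0.51 and no longer passed without OGD 7 h replicate 1. Cspg4, the NG2 proteoglycan, read 3.11, 4.31 and 4.82 at 7 h and 5.33, 4.87 and 4.99 at 24 h. Its rise of 0.98 was 0.50 without the same array and 0.85 without OGD 24 h replicate 1, neither passing. Olig2 (0.81) and Gpr17 (0.53) also rose. For no gene of this list did the OGD change differ from the control change at an unadjusted p under 0.05.

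Genes of cell cycle and DNA replication rose for 7 of 33 members (21.2%, against 9.4% of named genes) and fell for none, with a median of 0.26 beside 0.06 in control, where 6 rose and 1 fell. Mcm2, a subunit of the replicative helicase, read 1.1, 1.54 and 1.85 at 7 h and 2.20, 2.63 and 2.77 at 24 h. It rose by 1.03 ± 0.24 without overlap (limma, adjusted p = 0.082), with 0.59 in control and 0.62 from a second probe. Cdk4, a G1 kinase, read 4.60, 4.64 and 4.94 at 7 h and 5.50, 5.74 and 5.37 at 24 h, again apart, with changes of 0.81 ± 0.19 (limma, adjusted p = 0.0757) and 0.59 in control. Ccne2, Cdk2, Tyms, Ccnd3 and Ccnd2 rose by between 0.53 and 0.85.

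Proteasome subunits rose for 8 of 30 members (26.7%, against 9.4% of named genes) and fell for none, with small changes of 0.39 to 0.69 and a median of 0.14 beside 0.11 in control, where 1 rose. Psmc3, an ATPase of the regulatory particle, read 4.99, 5.25 and 5.53 at 7 h and 5.63, 6.16 and 6.05 at 24 h. Psmb6, a catalytic subunit, read 4.79, 4.90 and 5.15 at 7 h and 5.52, 5.62 and 5.54 at 24 h. Both were higher on every 24 h array, by 0.69 and by 0.61 (limma, adjusted p = 0.103 for Psmb6). With normexp background correction 0 of the 30 passed as higher, and 2 with replicate number as a block on the OGD arrays alone. Of 30 genes of autophagy and lysosome 4 rose (13.3%, against 9.4% of named genes), Grn (progranulin, 0.78), Wipi1 (0.56), Gabarap (0.41) and Sqstm1, and without OGD 7 h replicate 2 only 1 did.

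Of 29 genes of extracellular matrix and integrins 4 rose and 1 fell in OGD cultures, 17.2% in all against 17.5% of named genes, while 1 rose and 4 fell in control. The difference between the OGD and the control change was above 0 for 26 of the 29, with a median of 0.50. It was above 0 for 8316 of all 15154 named genes, with a median of 0.05. Among the 29 it passed for only 1 gene in each direction. Postn (periostin) read -2.69, -2.04 and -2.68 at 7 h and 0.44, -1.30 and -1.65 at 24 h. All 24 h arrays were higher, replicate 1 most, and the rise of 1.64 was 1.00 without that array. Control cultures changed by -0.05. Lum (lumican), Col5a1 and Lama5 rose by 1.46, 0.67 and 0.66, and Itgb6 fell by 1.64. For Lum the change was 0.71 without OGD 7 h replicate 1.

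Several of the largest rises on probes above background on all OGD arrays followed the order of the spike-in. Klf12, a Krüppel-like transcription factor, read -1.52, -1.55 and -1.46 at 7 h and 5.23, 2.80 and 2.32 at 24 h after OGD. The 24 h arrays were far above the 7 h arrays and in the same order as the spike-in (replicate 1 highest, replicate 3 lowest). The change was 4.95 ± 0.62 (limma, adjusted p = 0.0197) beside 4.05 in control cultures, and a second probe of Klf12 gave 0.71.

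Fam163b read 0.24, 0.12 and -0.11 at 7 h and 5.04, 3.02 and 2.50 at 24 h, with a change of 3.44 ± 0.51 (limma, adjusted p = 0.0249) beside 2.27, and -0.27 from a second probe. Kif18b, a mitotic kinesin, read -0.11, 1.26 and 1.83 at 7 h and 6.55, 3.21 and 2.82 at 24 h. Its change of 3.20 was 2.02 without OGD 24 h replicate 1. The other rises of this size were 1700001K19Rikl (4.80, control 4.25), Pik3c2b, a class II phosphoinositide kinase (2.61), Slc6a13, a GABA transporter (2.46), Abcg3l1 (2.07, and 1.22 without OGD 24 h replicate 1), Dmbt1 (1.99) and Slitrk2, a synaptic adhesion protein (1.95).

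H19, an imprinted non-coding RNA, did not follow that order, with 0.49, -0.11 and 1.79 at 7 h and 3.65, 3.31 and 3.87 at 24 h. Its groups were apart, and it rose by 2.89 ± 0.81 (limma, adjusted p = 0.124) beside 1.51 in control, which did not pass. The order of the spike-in on the 3 OGD 24 h arrays was met by 6 of the 10 largest rises (60%; 3 of 10 on the control 24 h arrays), by 64 of 315 called higher (20.3%), by 77 of 411 called lower (18.7%) and by 2226 of 15123 named genes with a value on all of them (14.7%). Scaled to the spike-in and not to the array median, the median probe changed by -4.77 in OGD and by -4.62 in control cultures, so that no probe was called higher. The part of the spike-in in these rises was not tested.

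**Figure D3:**
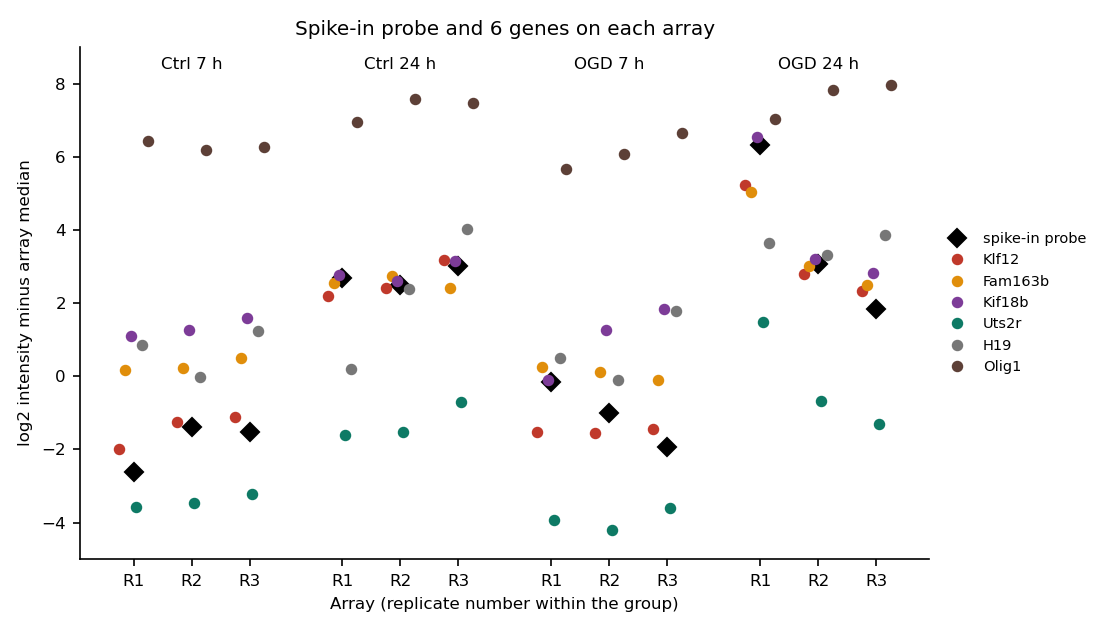
Log2 level relative to the array median (vertical axis) on each of the 12 arrays (horizontal axis, by group and replicate) of the spike-in probe, of the rising genes Klf12, Fam163b, Kif18b, Uts2r and H19, and of Olig1. The spike-in, Klf12, Fam163b, Kif18b and Uts2r are all highest on OGD 24 h replicate 1, whereas H19 and Olig1 are, among the OGD arrays, highest on OGD 24 h replicate 3.

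The second question was where the change after OGD differed from that in control cultures, which is the comparison from which slide and scan day cancel. Here 214 named genes were called with a higher OGD change (1.41%) and 100 with a lower one (0.66%). At an unadjusted p under 0.05 these were 321 (2.12%) and 198 (1.31%). In all that was 3.4% of named genes, a smaller share than such a threshold passes on average where nothing differs. No probe passed after adjustment (limma, lowest adjusted p = 1), against 661 probes with a higher (2.18%) and 425 with a lower change (1.4%) at an unadjusted p under 0.05. All differences below are therefore given with unadjusted p. Over all probes 437 (1.44%) and 200 (0.659%) were called in the 2 directions, 193 and 309 with quantile normalization, 251 and 202 without dim probes, and 26 and 27 with normexp. Without OGD 24 h replicate 1 the lower count was 471, and without OGD 7 h replicate 1 it was 126.

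Among the lowest differences were genes of neuronal activity. In control cultures Nr4a1, Nr4a3 and Npas4, activity-induced transcription factors, rose between 7 h and 24 h, and in OGD cultures they did not. Nr4a1 read 5.47, 5.34 and 4.91 at 7 h and 4.49, 4.93 and 4.98 at 24 h after OGD, but 4.36, 4.07 and 4.90 at 7 h and 6.65, 5.81 and 5.05 at 24 h in control. The OGD arrays overlapped and the control arrays did not, with changes of -0.44 and 1.40 and a difference of -1.84 ± 0.53 (limma, unadjusted p = 0.00559). For Nr4a3 the changes were -0.80 and 1.09 and the difference -1.89 ± 0.54 (limma, unadjusted p = 0.0053). For Npas4 they were -0.75 and 1.03, a difference of -1.78 ± 0.61 (limma, unadjusted p = 0.0145). Kcnip4, a regulatory subunit of A-type potassium channels, changed by -0.77 and 0.92, a difference of -1.69 ± 0.53 (limma, unadjusted p = 0.00857). In all, 7 of the 30 immediate early genes had a lower OGD change (23.3%, against 1.31% of named genes). None had a higher one, against 2.12% of named genes. The median difference was -0.56, against 0.05 over all named genes.

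Other genes fell after OGD and moved little in control. Slc2a3, the neuronal glucose transporter GLUT3 and a target of hypoxia-inducible factor, read 2.04, 2.13 and 1.23 at 7 h and 0.18, 0.44 and -0.11 at 24 h. Its groups were apart, with a change of -1.63 ± 0.29 (limma, adjusted p = 0.0379) against -0.23 in control, and the difference was -1.40 ± 0.40 (limma, unadjusted p = 0.00548). Adamts1, a metalloprotease that cleaves proteoglycans, read 4.39, 4.49 and 4.48 at 7 h and 2.44, 1.92 and 3.28 at 24 h. All control levels lay between 1.59 and 2.83, so the OGD 7 h arrays were the high ones. The change was -1.91 ± 0.35 (limma, adjusted p = 0.0445) against -0.33, a difference of -1.58 ± 0.50 (limma, unadjusted p = 0.00924).

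Tlr2, a receptor for bacterial lipoproteins and damage signals, read 0.86, 1.99 and 1.14 at 7 h and -2.10, -0.40 and -0.01 at 24 h after OGD. Control levels were between -0.81 and -0.38 throughout. The fall of 2.17 ± 0.47 (limma, adjusted p = 0.0666) compared with -0.15 in control, a difference of -2.02 ± 0.66 (limma, unadjusted p = 0.0115). The differences of Nr4a1, Nr4a3, Npas4, Kcnip4, Slc2a3, Adamts1 and Tlr2 passed without each single array in turn. With normexp correction those of Nr4a1 (-1.68), Nr4a3 (-1.61), Npas4 (-1.41), Slc2a3 (-0.99) and Adamts1 (-1.27) no longer passed. Inhba, Alkal2, a ligand of the ALK receptor, and Aspg also had lower OGD changes (differences of -1.63, -1.81 and -1.13), which no longer passed without OGD 24 h replicate 2 or any of several other single arrays. With replicate number as a block the differences of Alkal2 and of Abcg3l1 no longer passed, with unadjusted limma p between 0.0644 and 0.0695.

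Some genes rose after OGD alone. Pllp, plasmolipin, a myelin membrane protein, read -0.48, 0.65 and 1.04 at 7 h and 1.97, 2.20 and 1.88 at 24 h. It rose without overlap by 1.62 ± 0.37 (limma, adjusted p = 0.0753), against -0.04 in control, where levels ran from 0.89 to 1.78. The difference of 1.66 ± 0.52 (limma, unadjusted p = 0.00872) passed without each single array. Pdgfrb, the PDGF receptor of pericytes, read -0.52, 0.71 and 0.12 at 7 h and 1.62, 1.54 and 1.80 at 24 h. It rose by 1.55 ± 0.38 (limma, adjusted p = 0.0917) against 0.11, a difference of 1.44 ± 0.54 (limma, unadjusted p = 0.0233) that no longer passed without Ctrl 24 h replicate 1 (1.07), Ctrl 7 h replicate 3 (1.22) or OGD 7 h replicate 1 (1.13).

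Among genes above background on all 12 arrays, further genes with the highest differences were Abcg3l1 (2.03), Srpx2 (2.01), Atoh7 (1.72), Smoc1 (1.49) and Evi2a (1.48). Of these, Atoh7, a neurogenic transcription factor, fell in control cultures by 1.49 and changed by 0.23 after OGD. Without OGD 24 h replicate 1 the OGD changes of Abcg3l1, Srpx2 and Smoc1 were 1.22, 0.76 and 0.67. The differences of these 3 no longer passed without that array (1.18, 1.45 and 1.02), nor without OGD 7 h replicate 1 or Ctrl 24 h replicate 1.

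**Figure D4:**
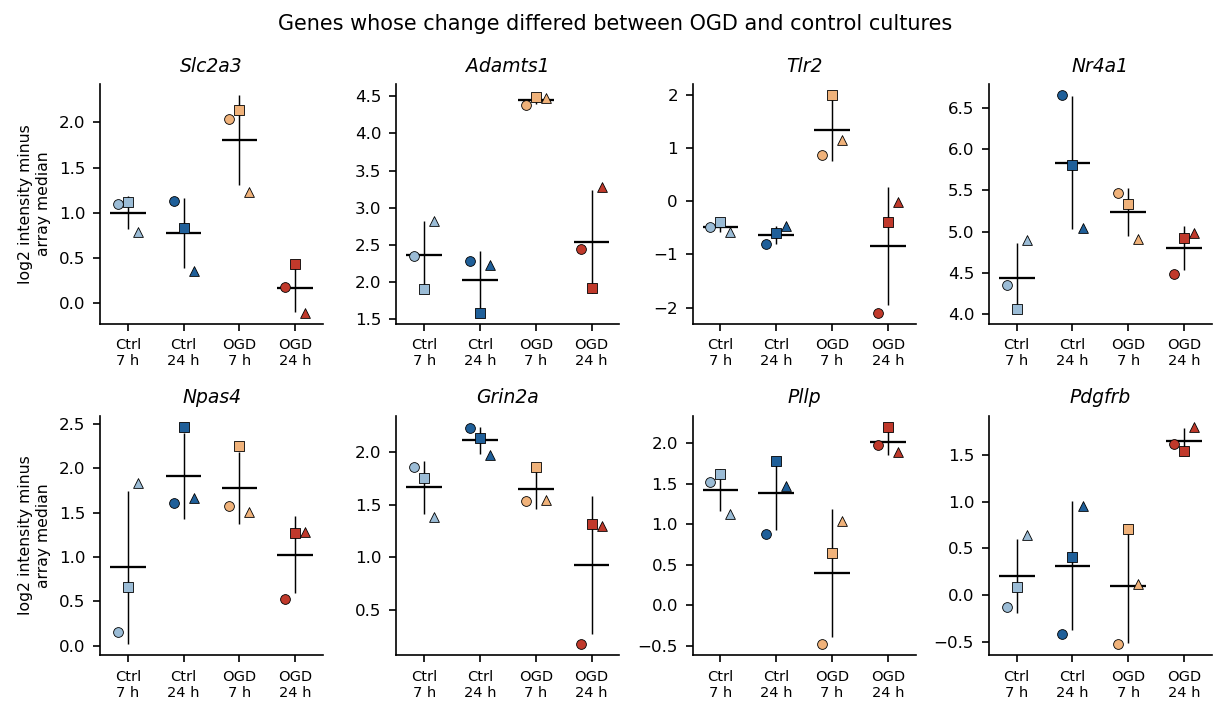
Log2 level relative to the array median (vertical axis) of 8 genes on every array by group (horizontal axis), with marker shape for the replicate, the mean as a line and the SD of 3 arrays as a bar. Slc2a3, Adamts1 and Tlr2 fell in OGD cultures alone, Nr4a1 and Npas4 rose in control cultures alone, Grin2a moved in opposite directions, and Pllp and Pdgfrb rose in OGD cultures alone.

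Of 25 ionotropic glutamate receptors and TARPs, the AMPA, NMDA, kainate and delta subunits with their auxiliary proteins, 6 fell and 2 rose after OGD, 32% in all against 17.5% of named genes, whereas 4 rose (16%, against 5.46% of named genes) and none fell in control. The count that fell ranged from 2 to 7 without single arrays and was 1 with normexp correction. Grid1, a delta receptor, read 0.39, 0.05 and -0.36 at 7 h and -0.89, -1.22 and -1.53 at 24 h. It fell without overlap by 1.24 ± 0.24 (limma, adjusted p = 0.0486), and the difference from control was -0.87. Grin2a, the NMDA receptor subunit of mature synapses, read 1.54, 1.86 and 1.54 at 7 h and 0.17, 1.32 and 1.30 at 24 h, with 1.86, 1.75 and 1.38 and then 2.23, 2.14 and 1.97 in control. Both sets were apart, in opposite directions. The OGD change of -0.72 was -0.34 and did not pass without OGD 24 h replicate 1, while the difference of -1.16 ± 0.42 (limma, unadjusted p = 0.018) passed without each single array. Grin2c, Cacng8, Gria1 and Grin2d fell by 0.79, 0.66, 0.65 and 0.62, and Cacng7 was among those that rose, by 0.55.

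Among 39 genes of presynaptic vesicle release 5 fell, Sypl2, Erc2 (-1.46), Pclo (-0.92), Slc32a1, the vesicular GABA transporter (-0.92), and Unc13a (-0.86), and none rose, a share of 12.8% against 8.13% of named genes that fell. Erc2 and Pclo, both scaffolds of the active zone, had OGD minus control differences of -1.20 and -1.24, but a second probe of Erc2 changed by 0.29 after OGD, with a difference of -0.31, and over the mean of its probes the difference (-0.76) no longer passed. Without OGD 24 h replicate 1, 9 of the 39 rose and 5 fell, and the difference of Pclo was -0.94 and did not pass. Of 37 postsynaptic scaffolds and kinases 3 rose and 2 fell after OGD, 13.5% in all against 17.5% of named genes. In control 8 rose and none fell, 21.6% against 5.46% of named genes that rose. Lrrtm2, a synaptic adhesion protein, read 1.97, 2.11 and 1.72 at 7 h and 0.56, 1.16 and 1.28 at 24 h, a fall of 0.94 without overlap and a difference from control of -1.23 ± 0.37 (limma, unadjusted p = 0.00763). A second probe of Lrrtm2 changed by 0.08. Nlgn3, Pick1 and Nlgn2 rose by 1.01, 0.96 and 0.49, and Camk2a fell by 0.74. When OGD 24 h replicate 1 was left out, 12 of the 37 rose and 3 fell.

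Potassium channels fell for 6 of 44 members, 13.6% against 8.13% of named genes (among them Kcnh2, Kcng1, Kcnd3, Kcnb2 and Kcna2, by -1.24 to -0.70) and rose for none, but without OGD 24 h replicate 1 the counts were 4 and 6. Second probes of Kcnh2 and Kcng1 changed by 0.14 and 0.34, and over the mean of their probes neither gene passed. Of 21 metabotropic glutamate and GABA receptors 2 rose and 2 fell, 19.05% in all against 17.5% of named genes. Grm5, the mGluR5 receptor, rose by 1.28 and by 1.25 in control, and Gabbr1 fell by 0.57.

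Genes of cholesterol synthesis and uptake fell for 8 of 24 members (33.3%, against 8.13% of named genes) and rose for none, with a median of -0.40 beside 0.18 in control, where 2 fell and 2 rose. Idi1, isopentenyl diphosphate isomerase, read 6.21, 6.38 and 5.76 at 7 h and 4.41, 5.08 and 5.65 at 24 h. The groups were apart, narrowly in replicate 3, and the change was -1.07 ± 0.39, against -0.19 in control. Hsd17b7, Lss, Hmgcs1, Cyp51, Fdft1 and Tm7sf2 fell by 0.98, 0.74, 0.74, 0.73, 0.72 and 0.72. The count that fell was 1 without OGD 7 h replicate 2 and 1 with normexp correction. Without OGD 24 h replicate 1 it was 4, with 2 that rose and a median of -0.10.

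Genes of the hypoxia response fell for 5 of 23 members (21.7%, against 8.13% of named genes), Slc2a3, Adm, Hk2, Higd1a and Slc2a1, and rose for none. Adm, the vasodilator adrenomedullin, read 7.05, 6.26 and 6.11 at 7 h and 5.93, 4.59 and 4.97 at 24 h. It was lower on all 24 h arrays, by 1.31, and by 0.98 in control. Hk2, hexokinase 2, fell by 1.20 and by 1.63 in control. Leaving out OGD 24 h replicate 1, 3 of the 23 fell and 3 rose.

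Other lists held members that passed in both directions or few that passed. Of 28 genes of the unfolded protein and integrated stress response, Atf4 (-0.76) and Dnajb9 (-0.61) fell and Pdia6 (0.61) and Sel1l (0.50) rose, 14.3% in all against 17.5% of named genes. Of 20 p53 targets, the growth arrest gene Gadd45g (-1.30), Plk2 (-1.10) and Aen (-0.51) fell, and Fas (0.98), Phlda3 (0.86), Gadd45a (0.76) and Ccng1 (0.58) rose, 35% in all against 17.5% of named genes. Of 34 apoptosis regulators 2 fell and 4 rose, 17.65% in all against 17.5% of named genes. Ripk3, a kinase of necroptosis, and Hrk, a BH3-only protein, fell by 1.31 and 0.91, and Bad and Xiap rose by 0.63 and 0.52. A second probe of Hrk changed by -0.07. Bmf, a BH3-only protein, also passed as higher but was not above background on any OGD 7 h array. With replicate number as a block Hrk, Il1b, Higd1a, Kcng1, Sqstm1 and Alkal2 no longer passed, with the same changes and unadjusted limma p between 0.0527 and 0.0583. Of 23 genes of glycolysis and pyruvate metabolism Hk2 and Mpc2 (-0.54) fell and Pdk2 rose, 13.04% in all against 17.5% of named genes. Pdk2, which restrains pyruvate dehydrogenase, rose by 1.18 beside 1.05 in control. For Mpc2 a second probe of similar signal changed by -0.18, and over the mean of its probes the gene no longer passed.

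Of 43 genes of the mitochondrial respiratory chain 1 rose and 1 fell (4.65% in all, against 17.5% of named genes), and without OGD 24 h replicate 1 these were 9 and 3. None of 48 cytosolic ribosomal proteins passed, and their median was 0.12, or -0.33 without OGD 24 h replicate 1. The 2 brightest, Rps2 and Rplp0, were saturated on all OGD arrays. Of 15 circadian clock genes only Per3 rose in OGD cultures (0.74, and 0.80 in control), while 6 rose in control, Dbp (1.91), Per2 (1.46), Nfil3, Per3, Bhlhe40 and Per1, with medians of 0.07 and 0.55. The share that rose was 6.67% in OGD cultures, against 9.4% of named genes, and 40% in control, against 5.46%. Among clock genes 5 rose and 1 fell without OGD 24 h replicate 1.

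Neuron markers fell for 1 of 20 (5%, against 8.13% of named genes), Nefh (-0.64). Astrocyte markers fell for 2 of 16 (12.5%), the glutamate transporters Slc1a2 (-0.61) and Slc1a3 (-0.56). A second probe of Slc1a3 changed by -0.07, and over the mean of its probes Slc1a3 no longer passed. Of 16 microglia markers, Fcer1g (1.34) and Aif1 (0.68) rose and Itgam fell (-2.01), with a median of 0.006 over the list. That was 18.75% in all, close to the 17.5% of named genes. Itgam was above background on 1 OGD array alone. Second probes of Fcer1g and Aif1 changed by 0.22 and -1.18, and over the mean of their probes neither gene passed. Of 15 vascular and fibroblast markers Pdgfrb and Lum rose and none fell, 13.3% in all against 17.5% of named genes. The mean level of the oligodendrocyte lineage markers was 0.722, 1.30 and 1.69 at 7 h and 1.59, 1.77 and 2.23 at 24 h, that of the astrocyte markers 5.31, 5.09 and 5.43 and then 4.37, 5.33 and 5.81. Microglia markers ran from -1.56 to -0.85 at 7 h and from -1.50 to -0.78 at 24 h. The part of cell type shares in the gene changes above was not tested.

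**Figure D5:**
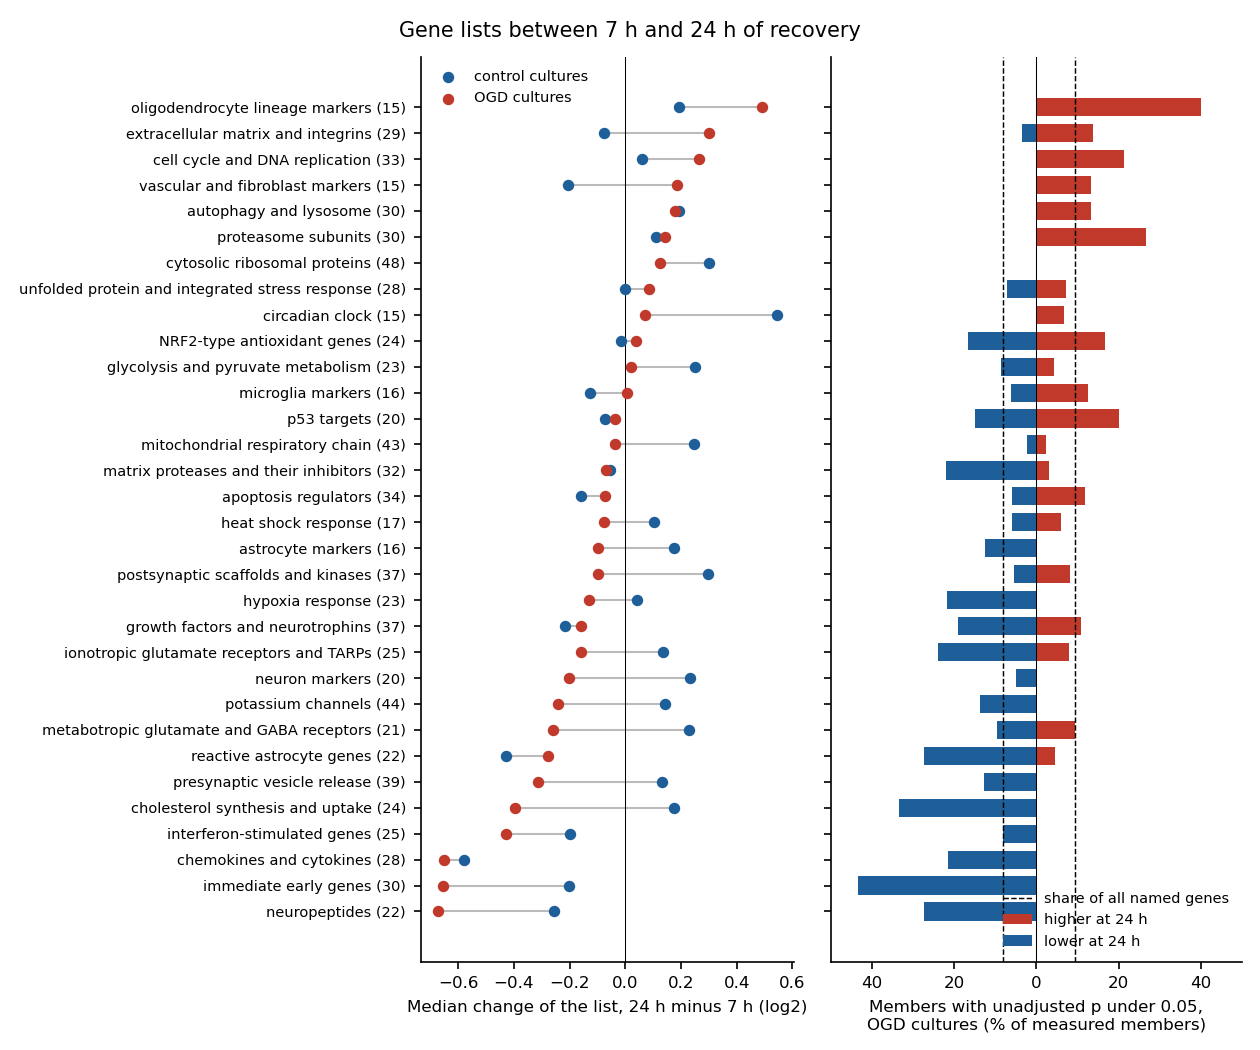
Left, median log2 change from 7 h to 24 h over the members of 32 gene lists (vertical axis) in OGD and Ctrl cultures; right, percent of members higher or lower in OGD cultures at an unadjusted p under 0.05, with dashed lines at 9.4% and 8.13% for all named genes. Immediate early genes have the largest share that fell (43.3%) and oligodendrocyte lineage markers the largest that rose.

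Some genes crossed the detection limit. Hsd17b2, which inactivates oestradiol and testosterone, read 0.43, -0.96 and -1.82 at 7 h and was not well above background at 24 h (-4.36, -5.62 and -5.50). It was at least 12.1-fold lower at 24 h, taking the dimmest well-measured signal as the limit (limma, adjusted p = 0.0217), and control cultures changed by -3.53. Il6, the cytokine, read -1.11, -3.33 and -1.86 at 7 h and lay below background at 24 h, so it was at least 4.61-fold lower (limma, adjusted p = 0.113). Spatc1l was at least 3.1-fold lower (limma, adjusted p = 0.0268).

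In the other direction 47 genes called higher were above background on the 24 h arrays alone. The brightest were Uts2r, the urotensin receptor (at least 10.9-fold higher), Aadacl4fm1 (at least 6.62-fold), Car5a, a mitochondrial carbonic anhydrase (at least 6.24-fold), and the olfactory receptor gene Or1f33 (at least 5.24-fold). Uts2r was not above background at 7 h and read 1.49, -0.67 and -1.30 at 24 h, Aadacl4fm1 0.60, -1.48 and -1.96, and Car5a 0.74, -1.62 and -2.22. All 3 were highest on replicate 1 and lowest on replicate 3, the order of the spike-in. Alx4, a homeobox gene, changed by 4.52 (limma, adjusted p = 0.0376) and by 3.36 in control. Of the 316 genes called higher 137 were not above background on any OGD 7 h array, and of the 413 called lower 77 were not above it on any 24 h array. Of these 413, however, 42 were not above background on any OGD array at either time, so their falls lay between background readings. Only 3 of the 413 were above background on all OGD 7 h arrays and on no OGD 24 h array. Detection itself differed between the times. The dimmest well-measured signal lay at -3.31, -4.97 and -4.87 on OGD 24 h replicates 1, 2 and 3, and between -3.79 and -3.45 at 7 h. Well above background were 78.8%, 86.7% and 87.1% of spots at 24 h, against 78.7% to 80.6% at 7 h. How many of all named genes, called or not, crossed the limit was not counted.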

How the data were processed

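RNA (200 ng per sample) was labelled with Cy3 and hybridised to Agilent rat 4x44K arrays. The deposited scanner files hold intensity values that the authors obtained with Agilent Feature Extraction 10.5.1.1, background-subtracted (processed signal), and a deposited series table holds the authors' log2 values of the same probes, used only as an alternative.

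Control spots and spots marked as outliers were left out, spots of a probe were averaged, log2 was taken with no pseudocount, and the median of each array was subtracted. A linear model of the 4 groups was fitted with limma 3.58.1 in R 4.3.3, and p-values are two-sided. Of 364404 probe values 70 were missing and those probes were fitted on the remaining arrays. The number of arrays, 3 in each group, limits the precision. The 30367 probes included 12363 without a name, which were counted and not described. Where a symbol had several probes, the one with the highest mean signal was followed. A probe was above background by the scanner's own flag, and genes dim at 1 time were bounded by the lowest well-measured signal of each array.

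Genes were named by a rule: the 10 largest rises and falls in OGD cultures among called probes above background without overlap, the 6 highest and 6 lowest differences from control, up to 4 passing members of each of 32 gene lists, the 4 brightest probes detected at 1 time alone, and the 4 largest changes called in both cultures. Other members of the lists and the genes whose sequences are shown were chosen after their values were seen. The members, lists and tests were all chosen with earlier results of these data known. Replicate numbers stand for independent cultures: same-numbered OGD arrays deviated together from their group means (r = 0.517, 0.212 and 0.423), control arrays less so (0.26, 0.0403 and 0.258).

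Alternatives were other scalings (75th percentile, quantile, spike-in), normexp background correction (offset 50, on the spots' median signals), the authors' values, outlier spots kept, dim probes left out, the mean over probes of a gene, the arrays of a contrast alone, slide as a block, replicate number as a block, the methods' t-test, and each array left out. The fit was tested on simulated data. The spike-in scaling relative to its median change and the replicate block on OGD arrays alone were added after seeing the data. Some genes of the lists entered the counts and are not reported here by name.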

Additional observations from a re-analysis of the deposited data

Results flagged for a closer look

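The spike-in, a control spot outside the comparisons, stood at 6.32 on OGD 24 h replicate 1 and at 3.07 on OGD 24 h replicate 2, in log2 relative to the array median. Both lay above the highest control array, which read 3.01.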

How the results depend on the processing

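Limits: with 3 arrays in each group, no probe passed adjustment for the difference between OGD and control changes, probes near background have little room to fall, and slide and scan day go with time. Among probe counts called, normexp gave 111 higher and 224 lower in OGD, 83 and 192 in control, and 26 and 27 for the difference. Spike-in scaling gave 0 and 30324, 0 and 30346, and 6 and 21, and relative to its median change 60 and 110, 33 and 116, and 12 and 18. The methods' t-test gave 420 lower in OGD (417 higher, and 0 after adjustment) and 599 lower in control. Quantile normalization gave 375 higher and 497 lower in control, and 193 and 309 for the difference. Without dim probes 534 were lower in control and 251 higher for the difference. With replicate number as a block there were 674 higher and 841 lower in OGD, 268 and 1266 in control, and 550 and 226 for the difference, and on OGD arrays alone the block gave 745 and 1044. Of the 132 named genes 126 passed under the block, and of 33 differences 28, without Abcg3l1, Alkal2, Alpl, Nqo1 and Postn. With 1 array left out, OGD counts ran from 554 to 1250 higher and from 564 to 3242 lower, control counts from 205 to 340 and from 684 to 1671, and differences from 277 to 704 and from 126 to 471. In control, the lower count was 684, 696 and 711 without Ctrl 24 h replicate 2, Ctrl 24 h replicate 3 and Ctrl 7 h replicate 3. For the difference the higher count was 277 without Ctrl 7 h replicate 3, 685 and 675 without Ctrl 7 h replicates 1 and 2, and 704 without OGD 24 h replicate 2. The sign turned with normexp for the OGD changes of Bmf (-0.112) and Gabrg3 (-0.214) and for the differences of Slitrk2 (-0.0489) and Or1f33 (-0.0767), and with the mean over probes for Aif1 (-0.253). The cause was not tested. Of 132 named genes 28 passed with spike-in scaling relative to its median change, 65 with normexp, 79 with the t-test, 109 with the block on OGD arrays alone, 117 with the 75th percentile and 130 with the authors' values. Over the mean of the probes of a gene 121 passed, without Aif1, Alkal2, Fas, Fcer1g, Hrk, Kcng1, Kcnh2, Lrrtm2, Mpc2, Sel1l and Slc1a3. Of 33 differences 0 passed with that spike-in scaling and 6 with normexp, where 2 turned sign.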
